A study of Mus musculus with 2 samples.

Results

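The genes of sphingosine 1-phosphate (S1P) signalling were examined in cultured mouse endothelial cells with and without deletion of Snail1. The set holds 9 genes, namely the receptors S1pr1, S1pr2, S1pr3 and S1pr4, the sphingosine kinases Sphk1 and Sphk2, the S1P lyase Sgpl1, the S1P phosphatase Sgpp1 and the S1P exporter Spns2. Every probe set whose platform annotation gave exactly one of these symbols was taken, which gave 17 probe sets for the 9 genes, out of 18193 genes on the array. The genes were selected on the Snail1 KO minus WT differences of these same arrays, which were already known, so their values are a description and none was tested. Both groups were primary endothelial cells of strain C57/BL6, isolated from floxed Snail1f/f embryos at E10.5 and grown in culture. The WT cells had received an adenovirus carrying β-galactosidase and the Snail1 KO cells an adenovirus carrying the Cre recombinase, and both recovered for days before RNA was taken. No array holds cells given Cre without the floxed allele, so loss of Snail1 and an effect of Cre, or of the particular virus that carried it, cannot be told apart in any value below.

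S1P is a lipid messenger made when a kinase adds phosphate to sphingosine, itself released from ceramide. The lyase destroys S1P irreversibly, the phosphatase returns it to sphingosine, and Spns2 carries it out of endothelial cells into blood and lymph. Outside the cell S1P acts on G protein-coupled receptors. In endothelium S1pr1 signals through Gi to Rac and strengthens junctions, whereas S1pr2 and S1pr3 also use other G proteins, and S1pr4 is best known from blood and lymphoid cells.

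Each group was measured on 1 array, so no spread between cultures is known, no p-value or error can be attached, and precision is limited by the number of arrays. Values are log2 expression values from the RMA method, and a difference is always given as Snail1 KO minus WT. The targeted gene Snai1, with 1 probe set, read 5.33 on the WT array and 3.59 on the Snail1 KO array. The 4 control probe sets for phage Cre read 2.69 to 3.83 on the WT array and 11.87 to 12.86 on the Snail1 KO array. No other control probe sets were read beside them, so the source of this Cre signal was not tested. All 10 endothelial markers examined, among them Cdh5 and Pecam1, lay above the filter level of 3.97, the 40th percentile of probe set means, which is a cut on dim values and not a test of detection. A gene counts as analysed if its brightest probe set had a mean above that level, as 12874 genes and all 9 S1P genes did.

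S1pr3 had the largest difference of the S1P genes in the brightest probe set. It read 3.41 on the WT array, under the filter level, and 5.23 on the Snail1 KO array, which is 3.51-fold as deposited and 2.39-fold with the WT value raised to the filter level, so the size is not exact. The other 8 genes lay within 1.5-fold in their brightest probe sets, a limit that 11.1% of all analysed genes passed in either direction. No S1P gene was 2-fold lower. The 2-fold threshold was passed by 0.971% of all analysed genes in the higher direction and by 1.84% in the lower. Since the genes were selected on this contrast, nothing is read from the count against these shares. In the brightest probe set, 5 of the 9 genes were higher and 4 lower, with a median log2 difference of 0.26, against -0.01 over all analysed genes, of which 48.9% were higher. Without S1pr3 the median of the other 8 was 0.13. Over all 17 probe sets, 11 were higher, 5 were lower and 1 was equal. Of these probe sets 4 lay below the filter level by their means, and some genes count more than 1 time. Nothing is therefore read from these counts. In bulk RNA of a culture, fewer cells of a type and less RNA per cell cannot be told apart.

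**Figure D1:**
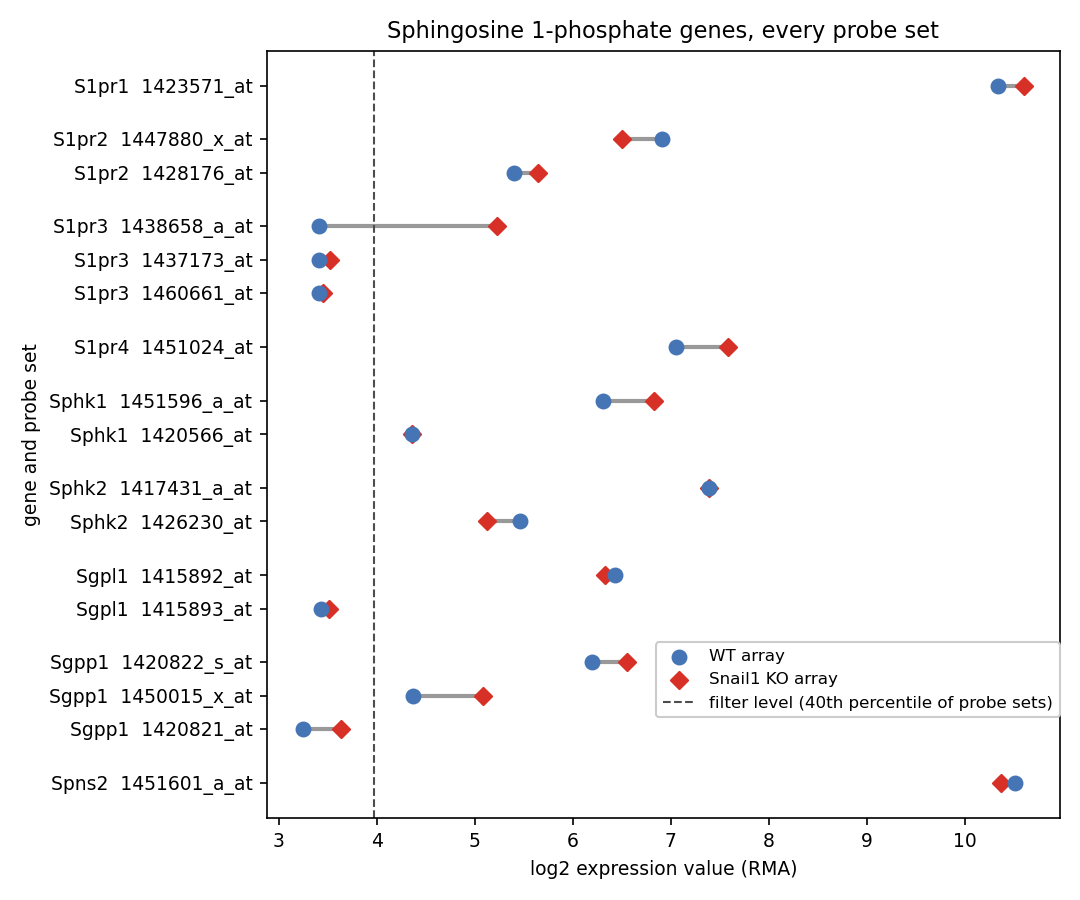
Log2 expression value (x axis) of each of the 17 probe sets of the 9 S1P genes (y axis), with a blue circle for the WT array and a red diamond for the Snail1 KO array, joined by a line. The dashed line marks the filter level of 3.97. The S1pr3 probe set 1438658_a_at spans 3.41 to 5.23, while the other 2 S1pr3 probe sets stay below the filter level on both arrays.

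S1pr3 encodes a receptor that couples to several G protein classes and lies on chromosome 13. It had 3 probe sets. Probe set 1438658_a_at, whose suffix marks probes shared by alternative transcripts of 1 gene, read 3.41 on the WT array and 5.23 on the Snail1 KO array, a log2 difference of 1.81. On the WT array this was under the filter level and on the Snail1 KO array over it, so the gene entered the analysed set only through the array on which it was high. The other S1pr3 probe sets gave little difference. Probe set 1437173_at read 3.41 and 3.53, a difference of 0.12, and 1460661_at read 3.41 and 3.45, a difference of 0.04. Both lay below the filter level on both arrays, where a difference cannot be read reliably, as did the WT value of 1438658_a_at. The difference was thus seen in 1 of the 3 probe sets. Averaged over the 3 probe sets, the log2 difference of S1pr3 was 0.66, which is 1.58-fold and below the 2-fold threshold.

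By the distance between pairs of log2 values on the 2 arrays, the analysed genes most like S1pr3 were Mrc1, Zfp58 and Dock3. Mrc1, the mannose receptor, read 3.68 and 5.21, and Zfp58, a zinc finger gene, read 3.69 and 5.33. Dock3, an activator of Rac, read 3.63 and 4.94. With 2 arrays this likeness means only a similar dim WT value and a similar difference.

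S1pr3 is also expressed in vascular smooth muscle. Smooth muscle and pericyte markers had a negative median difference, at -0.30 log2 units, or -1.85 over the 3 of them above the 60th percentile. Those 3 were Tagln, Acta2 and Des, so that median is the Acta2 value, and Des read 5.71 and 5.72. Of the 10 smooth muscle and pericyte markers, 8 were analysed, and 3 of these were higher and 5 lower on the Snail1 KO array. Their extremes were Tagln, which encodes transgelin of the contractile apparatus and read 10.35 and 7.80, and Abcc9, a potassium channel subunit of pericytes, which read 4.57 and 4.69. Acta2, smooth muscle actin, named here after its value was seen, read 10.94 and 9.09 in its brightest probe set, 3.60-fold lower, while its probe sets ranged from -1.85 to 0.20. The mean log2 value over all 10 was 5.79 on the WT array and 5.13 on the Snail1 KO array, with Myh11 and Rgs5 below the filter level. The part of these cells in the S1pr3 value was not tested.

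S1pr1, the main endothelial S1P receptor, lies on chromosome 3 and had 1 probe set. It read 10.34 on the WT array and 10.60 on the Snail1 KO array, a 1.20-fold higher value. This difference is small and rests on 1 probe set, so no direction is read from it. The 10 endothelial markers had a median log2 difference of 0.25, with 7 higher and 3 lower, and S1pr1 had a difference of 0.26. The markers did not share 1 difference, so nothing is read from the nearness of these values. The mean log2 value of the markers was 10.92 on the WT array and 11.14 on the Snail1 KO array. Their extremes were Cldn5, a tight junction claudin, at 1.08, and Emcn, a sialomucin, at -0.40. The part of endothelial content in the S1pr1 value was not tested.

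S1pr2, a receptor that also couples to several G protein classes, lies on chromosome 9, and its 2 probe sets disagreed in sign. Probe set 1447880_x_at, whose suffix warns that some probes resemble other transcripts, read 6.91 and 6.50, a log2 difference of -0.41. Probe set 1428176_at read 5.40 and 5.64, a difference of 0.24. No direction can be given for S1pr2 from these arrays.

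S1pr4 lies on chromosome 10 and had 1 probe set, which read 7.05 on the WT array and 7.59 on the Snail1 KO array, 1.45-fold higher. S1pr4 is known from leukocytes, so leukocyte markers were read beside it. Of 10 such markers, 6 were analysed, with 2 higher and 4 lower and a median log2 difference of -0.06. The mean log2 value over the 10 was 5.14 on the WT array and 4.95 on the Snail1 KO array. Ptprc, the pan-leukocyte phosphatase CD45, read 2.96 and 3.29, both under the filter level, and Tyrobp, Itgam and Cd79a were below it by their means. Among the 6 analysed markers, the lowest difference was in Coro1a, a coronin of blood cells, at -1.96, although another of its 3 probe sets gave 0.23, and the highest was in Laptm5, a lysosomal protein of blood cells, at 0.18. The part of leukocytes in the S1pr4 value was not tested.

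**Figure D2:**
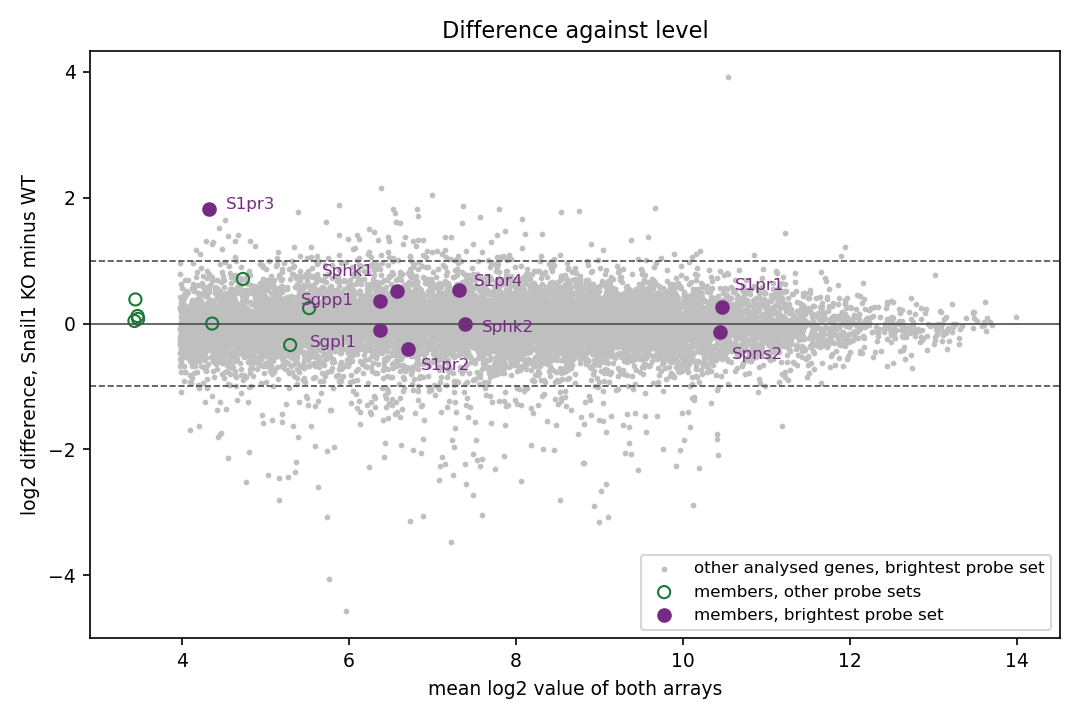
Log2 difference, Snail1 KO minus WT (y axis), against the mean log2 value of both arrays (x axis), for the brightest probe set of each other analysed gene (grey), the brightest probe set of each S1P gene (purple, named) and the further S1P probe sets (green circles). Dashed lines mark 2-fold. S1pr3 at 1.81 lies past the upper line, and the brightest probe sets of the other 8 genes lie between -0.41 and 0.53.

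Snail1 is a zinc finger repressor that binds E-box sequences, so the promoter sequences of the receptors were read for the letters CAGGTG and their reverse complement CACCTG, which is the same site on the opposite strand. The 250 bases before each start site were searched in RefSeq sequences of build GRCm38.p6. These held 13 windows for 8 of the 9 S1P genes, with none for S1pr1. The letters were found in 2 windows, those of S1pr2 and S1pr4, each with 1 match, against 17.2% of all 32851 promoter windows of the same length. The match began 201 bases before the S1pr2 start and 121 bases before the S1pr4 start. The window of S1pr3, the gene with the largest difference, had no match, which says only that these letters are not in this stretch. The windows of these 3 receptors are shown 5′ to 3′ on the strand of the gene, with the matched letters in capitals.
S1pr3 (chr13:51408368-51408617, plus strand): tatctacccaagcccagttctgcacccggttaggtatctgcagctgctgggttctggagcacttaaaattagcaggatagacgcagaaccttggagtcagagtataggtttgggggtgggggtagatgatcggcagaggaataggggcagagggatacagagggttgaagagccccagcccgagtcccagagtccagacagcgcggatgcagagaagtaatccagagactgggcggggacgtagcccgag
S1pr2 (chr9:20976794-20977043, minus strand): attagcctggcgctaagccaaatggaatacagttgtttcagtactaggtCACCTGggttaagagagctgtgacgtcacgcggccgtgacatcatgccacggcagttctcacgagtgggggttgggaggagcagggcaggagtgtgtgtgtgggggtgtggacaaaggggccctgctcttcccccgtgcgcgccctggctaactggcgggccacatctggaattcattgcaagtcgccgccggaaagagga
S1pr4 (chr10:81500138-81500387, minus strand): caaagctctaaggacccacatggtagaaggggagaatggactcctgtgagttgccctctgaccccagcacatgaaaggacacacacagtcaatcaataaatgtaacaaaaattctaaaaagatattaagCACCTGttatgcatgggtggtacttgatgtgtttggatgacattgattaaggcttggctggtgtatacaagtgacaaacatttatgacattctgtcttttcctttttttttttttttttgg
S1pr4 had a log2 difference of 0.53, the probe sets of S1pr2 disagreed in sign (-0.41 and 0.24), and no binding was measured here.

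The enzymes and the exporter differed less than S1pr3 in the brightest probe set, as did the other receptors. Of these 5 enzymes and exporter, 2 were higher and 3 lower, with a median log2 difference of -0.004. Sphk1, the sphingosine kinase that responds to growth factors, lies on chromosome 11. Its probe set 1451596_a_at read 6.31 and 6.83, which is 1.44-fold higher on the Snail1 KO array. Its other probe set, 1420566_at, read exactly 4.36 on both arrays, as 283 probe sets on the array did with their own values, so only 1 of 2 probe sets carried a difference. Sphk2, the kinase found largely in nucleus and mitochondria, lies on chromosome 7 and read 7.39 on both arrays in 1417431_a_at. Its probe set 1426230_at read 5.46 and 5.12, a log2 difference of -0.34.

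Sgpp1, the phosphatase of the endoplasmic reticulum that returns S1P to sphingosine, was the 1 S1P gene with more than 1 probe set above the filter level and all of them higher. It lies on chromosome 12. Probe set 1420822_s_at read 6.19 on the WT array and 6.55 on the Snail1 KO array, a log2 difference of 0.36. Probe set 1450015_x_at read 4.37 and 5.08, a difference of 0.71, which is 1.63-fold, and 1420821_at read 3.25 and 3.63, a difference of 0.38, below the filter level on both arrays. The suffixes of the first 2 mark probes that can bind other transcripts too. Sgpl1, the lyase on chromosome 10, read 6.43 and 6.33 in 1415892_at, a difference of -0.10, and 3.44 and 3.51 in the dim 1415893_at, a difference of 0.07.

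Spns2, the exporter that supplies S1P to lymph from lymphatic endothelium, lies on chromosome 11 and had 1 probe set. It read 10.51 on the WT array and 10.37 on the Snail1 KO array, 1.10-fold lower. All 4 lymphatic endothelial markers found were higher, with a median log2 difference of 0.43 and a mean log2 value of 11.25 on the WT array and 11.78 on the Snail1 KO array. Prox1, the lymphatic transcription factor, had the highest difference at 1.06, and Lyve1, the hyaluronan receptor, the lowest at 0.18. The Spns2 difference of -0.14 was small and rests on 1 probe set, so no direction is read from it. The part of lymphatic endothelium in the Spns2 value was not tested.

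As yardsticks without replicates, the log2 differences of all analysed genes had a robust SD of 0.32. Probe sets of the same gene, all above the filter level, disagreed with an SD of 0.40 (10436 probe sets compared). The robust SD limits the weight of outlying genes, while the value of 0.40 is an ordinary SD of gaps between probe sets. They are unlike measures and are not compared with each other. Of the 6 S1P genes with several probe sets, 3 showed a single sign throughout, namely S1pr3, Sphk2 and Sgpp1. However, 1437173_at and 1460661_at of S1pr3 and 1420821_at of Sgpp1 lay below the filter level, where a sign cannot be read reliably. The share over all genes with several probe sets was not computed, so nothing is read from this count. The gap between probe sets of 1 gene reached 1.77 in S1pr3 and 0.65 in S1pr2. In the brightest probe set the difference in 8 of the 9 genes was at most 0.53 in size. The S1pr3 gap ran to a probe set below the filter level, so it is not like the SD of 0.40.

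Further genes that handle S1P differed by less than 2-fold in their brightest probe sets. Of 10 listed, 7 were analysed, 3 higher and 4 lower, with a median log2 difference of -0.09. Plpp3, a surface phosphatase that removes the phosphate of S1P and of lysophosphatidic acid, was 1.47-fold higher, from 10.24 to 10.79, and its further probe set gave 0.59. Abca1, a lipid transporter, was 1.41-fold higher, with the highest of its 3 probe sets at a log2 difference of 1.40. Plpp2, a related phosphatase, was 1.36-fold lower, although the other Plpp2 probe set gave 0.10. The fifth receptor S1pr5 read 2.75 and 2.77 and the further phosphatase Sgpp2 read 2.46 and 2.72, both below the filter level. Mfsd2b, the S1P exporter of red cells and platelets, read 3.88 and 3.78, also below it. Apom, the carrier of S1P on lipoprotein, read 4.95 and 5.09, with its other probe set at -0.40.

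Of the genes that make ceramide, release sphingosine from it or regulate these steps, 11 of 16 analysed were higher. Their median log2 difference was 0.20, with none past 2-fold. The list mixes steps and regulators, so its count gives no direction of sphingosine supply. Of the ceramide synthases, Cers4 was 1.73-fold higher, with all 3 of its probe sets at 0.51 or more, and Cers6 was 1.65-fold lower in its 1 probe set. Kdsr, the reductase of an early step of ceramide synthesis, was higher by 1.33-fold, although its lowest probe set gave -0.02.

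Enzymes that convert ceramide or its products included differences close to 2-fold in the brightest probe set. Of 9 analysed, 6 were higher and 3 lower, with a median log2 difference of 0.13. Galc, which removes galactose from galactosylceramide, read 7.91 on the WT array and 8.89 on the Snail1 KO array, 1.97-fold higher, but its lowest probe set gave 0.02. Ugcg, which makes glucosylceramide, was 1.77-fold higher, from 8.26 to 9.08, and its 4 probe sets had log2 differences from 0.65 to 1.47. Smpd3, a neutral sphingomyelinase, was 1.82-fold lower, at 5.14 on the Snail1 KO array, and each of its 3 probe sets was lower.

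G proteins, small GTPases with their regulators, and arrestins that act below the receptors differed little. Of 17 analysed, 11 were higher and 6 lower, with a median log2 difference of 0.05. Arrb2, an arrestin that takes part in receptor internalisation, was 1.63-fold higher, and its other probe set gave 0.41. Arrb1, the related arrestin, was 1.27-fold higher. Tiam1, a Rac activator, was 1.21-fold higher, with its lowest probe set at -0.20.

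**Figure D3:**
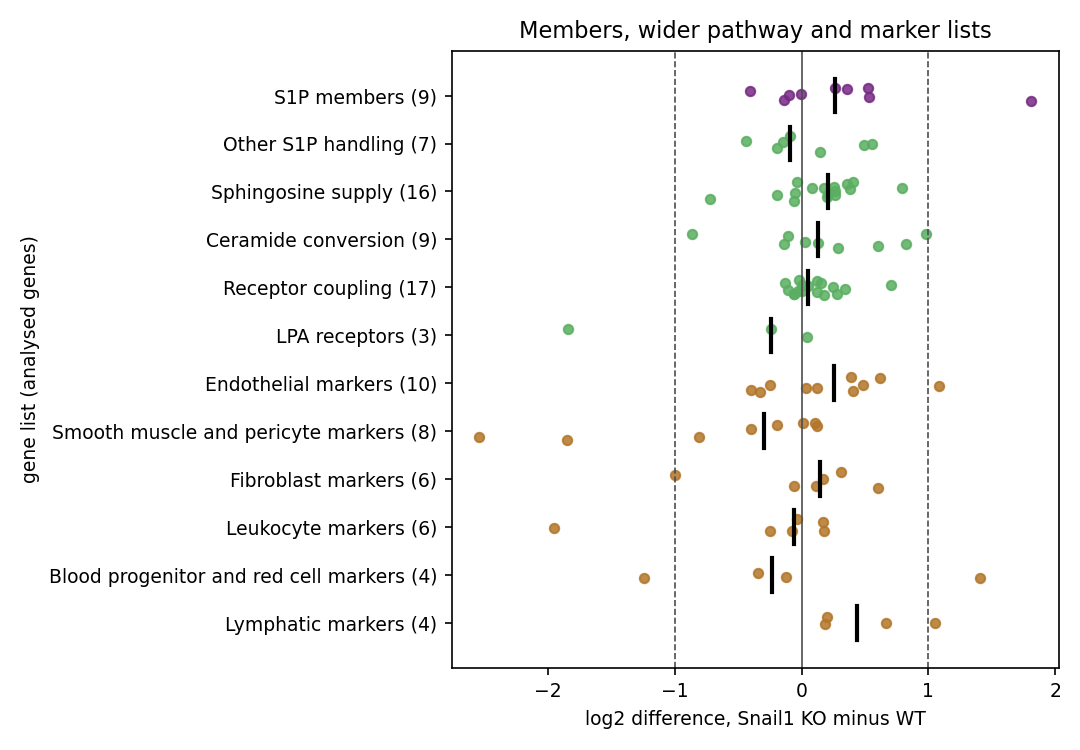
Log2 difference, Snail1 KO minus WT (x axis), of the brightest probe set of each analysed gene in the 9 S1P genes (purple), the wider pathway lists (green) and the cell type marker lists (brown), with the number of analysed genes in brackets. Black bars mark medians and dashed lines 2-fold. S1pr3 at 1.81 is the 1 S1P gene past a dashed line.

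Markers of remaining cell types were read in the same way. Fibroblast markers had a median log2 difference of 0.14 over 6 analysed genes, with the lowest difference in Col3a1, a fibrillar collagen that read 7.33 and 6.33 and whose other probe set gave 0.22, and the highest in Fbln2, a matrix fibulin, at 0.60. Blood progenitor and red cell markers had a median of -0.23 over 4 analysed genes, from Pf4, a platelet chemokine, at -1.25 to Myb, a progenitor transcription factor, at 1.41. The sign of that median turned to 0.64 over the 2 genes above the 60th percentile.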

How the data were processed

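Affymetrix mouse arrays were run on 1 WT and 1 Snail1 KO culture, grouped by sample title. The values deposited by the authors are log2 expression values from RMA (affy package), as the submitters' processing notes name it. Tool versions are not given in the sources. RMA equalises the distributions of the arrays, so a change in total mRNA cannot be seen, and it compresses differences of dim probe sets. No detection calls were used here. Probe sets were named from GEO's platform annotation. Those with no symbol or several were not used for genes, and none with several held an S1P gene. The difference was Snail1 KO minus WT, computed in Python 3.11.15 with pandas 2.3.3. The brightest probe set by mean of the 2 arrays stood for a gene, and counts were at 2-fold, 1 log2 unit. Counting was tested on simulated data.

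The genes, lists and naming rule were chosen with earlier results of these data known. The rule named all 9 S1P genes, Snai1, the up to 3 analysed genes of each wider list with the largest difference, S1pr5, Sgpp2, Plpp3, Mfsd2b and Apom, the extremes of each marker list, and the 3 genes nearest to S1pr3. Cdh5, Pecam1, Acta2, Des and the markers below the filter level were added to it. List genes with no probe set of their own symbol or an older one were not analysed here. Promoter sequences came from RefSeq, build GRCm38.p6. Alternatives changed the probe set that stands for a gene, the filter, the centring, a floor on dim values and the fold threshold.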

Additional observations from a re-analysis of the deposited data

How the results depend on the processing

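With 1 array in each group, no replicate could be left out. No paired analysis was possible because a single pair leaves no spread to estimate. The count of 1 S1P gene at least 2-fold higher was 0 when the probe sets of a gene were averaged, 0 without the probe sets whose suffix is _s_at, _x_at or _a_at, and 0 among the 8 genes above the 60th percentile, which leaves S1pr3 out. It remained 1 at 1.5-fold and 3-fold and with dim values raised to the filter level. The 40th percentile filter and the centring could not change it, since all 9 genes pass that filter and the centring value was 0. The count of lower genes was 0 in every alternative. The median of 0.26 fell to 0.13 among the 8 genes above the 60th percentile. It moved by less than 0.1 with probe sets averaged and without suffixed ones. Dim values raised to the filter level left it unchanged, and the 40th percentile filter and the centring could not move it. For S1pr3 the log2 difference was 1.26 with dim values raised to the filter level, 0.66 with the mean of its probe sets and 0.12 without suffixed probe sets. S1pr2 was at -0.08 with the mean of its probe sets and at 0.24 without suffixed ones, and Sphk1 and Sphk2 were at 0 and -0.34 without them. In 28 further values of single S1P genes the change was under 0.32. Many of these could not change, since the centring value was 0 and 3 genes had 1 probe set. The floor also left brighter values as they were. Among the list medians, 27 of the alternative values moved by under 0.1 and 6 by more. Over genes above the 60th percentile, the median was -1.85 for smooth muscle and pericyte markers (-0.30 as reported), -1.05 for lysophosphatidic acid receptors (-0.25) and, with the opposite sign, 0.64 for blood progenitor and red cell markers (-0.23) and 0.05 for leukocyte markers (-0.06). The smooth muscle median was -0.43 with probe sets averaged, and the lysophosphatidic acid receptor median was -0.05 without a filter. Signal over background is unknown for every probe set.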

Other observations

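The receptors of lysophosphatidic acid, a lipid related to S1P, included a difference of about the size of that in S1pr3, in the other direction. Lpar4, a receptor of that lipid found in endothelium, read 8.16 on the WT array and 6.31 on the Snail1 KO array, 3.60-fold lower. All 3 Lpar4 probe sets were lower, with log2 differences from -1.85 to -1.11. Lpar6, a further receptor of that lipid, read 10.20 and 9.96 in its 1 probe set. Lpar1 read 5.32 and 5.36 in its brightest probe set, while its lowest probe set gave -0.92. Lpar2 and Lpar3 lay under the filter level. Of the 5 lists of wider pathway genes, with 52 analysed genes together, Lpar4 was the 1 gene past 2-fold in its brightest probe set, while Abca1, Cers4 and Ugcg passed it in another. These values come from 1 array per group and none was tested.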
